A study of Homo sapiens with 6 samples.

Results

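The genes described here are 10 members of the NF-κB system: the 5 NF-κB subunits (RELA, RELB, REL, NFKB1 and NFKB2), the inhibitor NFKBIA, the feedback gene TNFAIP3, and the survival genes BIRC2, BIRC3 and SOD2. They were taken by symbol from the 20030 genes of the deposited expression table, and all 10 were found there. The set was selected on their known roles and on the difference between shYB1 and vector libraries in these same data. That difference is therefore given below as a description, with no p-value for any member and nothing read from counts of members.

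Messenger RNA was sequenced from 786-O, a human line long established from a clear cell renal cell carcinoma (ccRCC). The 3 vector libraries came from cells carrying a scrambled shRNA and the 3 shYB1 libraries from cells with a stable shRNA against YB1, the Y-box binding protein encoded by YBX1. Both groups were lentivirally infected and selected with puromycin, and their labels give passages 16 to 18. The series text speaks of several independent shRNAs, whereas the labels name 1 shYB1 group, so which hairpin each library carried is not known, and the labels do not say that replicates were separate cultures. P-values therefore measure only the spread between these libraries.

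NF-κB is a family of dimeric transcription factors. In resting cells the dimers are held in the cytoplasm by inhibitors of the IκB family, and signals from receptors such as the TNF receptor activate IκB kinases, which mark the inhibitors for destruction and free the dimers to enter the nucleus. RELA, RELB and REL carry transactivation domains, whereas NFKB1 and NFKB2 encode precursors that are processed into DNA-binding partners, NFKB2 mainly in the non-canonical branch. Many target genes feed back on the pathway: NFKBIA encodes IκBα, which returns dimers to the cytoplasm, and TNFAIP3 encodes A20, a ubiquitin-editing enzyme that shuts off signaling upstream. BIRC2 and BIRC3 encode the ubiquitin ligases cIAP1 and cIAP2, which limit cell death below the TNF receptor and restrain the non-canonical branch, and SOD2 encodes the manganese superoxide dismutase of mitochondria. YB1 is a cold-shock domain protein that binds both RNA and DNA, the latter at Y-box elements.

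The sequences before the transcription starts of the members are shown because NF-κB dimers bind κB elements and YB1 was named for the Y-box. Promoter windows of 250 bases upstream of each RefSeq start (assembly GRCh38.p14) were available for 9 of the 10 members. The motifs below were searched on both strands. The κB consensus is 10 bases long and palindromic (GG, then purine, purine, any, any, pyrimidine, pyrimidine, then CC), CCAAT is the core that the Y-box contains, and CTGATTGG is the Y-box itself, which overlaps a CCAAT match on the other strand. The sequences below are 5′ to 3′ along the strand of the gene. Capitals mark matches to the κB consensus, except in SOD2, where they mark the Y-box read on the opposite strand. For BIRC3, whose window held 2 matches, the bases from 250 to 35 upstream of the RefSeq start are given (chr11:102317234-102317449, plus strand). For NFKBIA the whole window is given (chr14:35404750-35404999, minus strand), and for the others a stretch of 30 bases around the match.
BIRC3: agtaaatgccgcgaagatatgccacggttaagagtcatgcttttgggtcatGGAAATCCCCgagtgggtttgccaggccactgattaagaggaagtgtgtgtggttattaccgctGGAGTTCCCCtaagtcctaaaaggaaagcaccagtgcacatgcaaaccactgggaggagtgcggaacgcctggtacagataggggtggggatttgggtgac
NFKBIA: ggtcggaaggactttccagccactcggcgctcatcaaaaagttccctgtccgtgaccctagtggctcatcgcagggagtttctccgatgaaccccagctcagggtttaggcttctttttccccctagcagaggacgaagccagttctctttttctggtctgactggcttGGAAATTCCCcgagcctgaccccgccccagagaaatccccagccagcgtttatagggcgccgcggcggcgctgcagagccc
TNFAIP3 (chr6:137867188-137867217, plus strand): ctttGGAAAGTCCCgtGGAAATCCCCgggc
NFKB1 (chr4:102501300-102501329, plus strand): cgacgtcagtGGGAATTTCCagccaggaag
NFKB2 (chr10:102394461-102394490, plus strand): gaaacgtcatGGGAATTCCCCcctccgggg
REL (chr2:60881517-60881546, plus strand): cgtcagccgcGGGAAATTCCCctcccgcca
SOD2 (chr6:159762439-159762468, minus strand): cccggagccggCCAATCAGgggccccggag

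The κB consensus was found in windows of 6 of the 9 members. Its first base lay 81 bases upstream of the start in NFKBIA, 67 and 55 in TNFAIP3, 199 and 135 in BIRC3, and 49 in NFKB1. In REL and NFKB2 the stretches printed above hold 2 overlapping matches each, so that 11 bases are in capitals. The NFKB2 stretch is from start 2 of its 3, whose window held another match 78 bases upstream. Start 3 of NFKB2 had matches 176 and 21 bases upstream, and start 1 had none. BIRC2, RELA and SOD2 had no match in any of their windows, of which SOD2 had 4 (starts 1 to 4, numbered as in the reference table). The consensus is common: it occurred in 12.3% of 35116 promoter windows of all genes, and in at least 1 window of 18.4% of the 8382 tested genes with a window. CCAAT was found in NFKB2, RELA and SOD2, against 42.1% of tested genes and 32.0% of windows. CTGATTGG was found only in SOD2 among the 9, 176 bases upstream of start 4, against 6.13% of tested genes and 3.81% of windows. The window of start 4 (chr6:159762282-159762531) lies outside the SOD2 gene record described below (chr6:159669057-159745186). The windows of the other SOD2 starts held no CTGATTGG. These are matches of letters in a window, and binding was not measured.

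**Figure D1:**
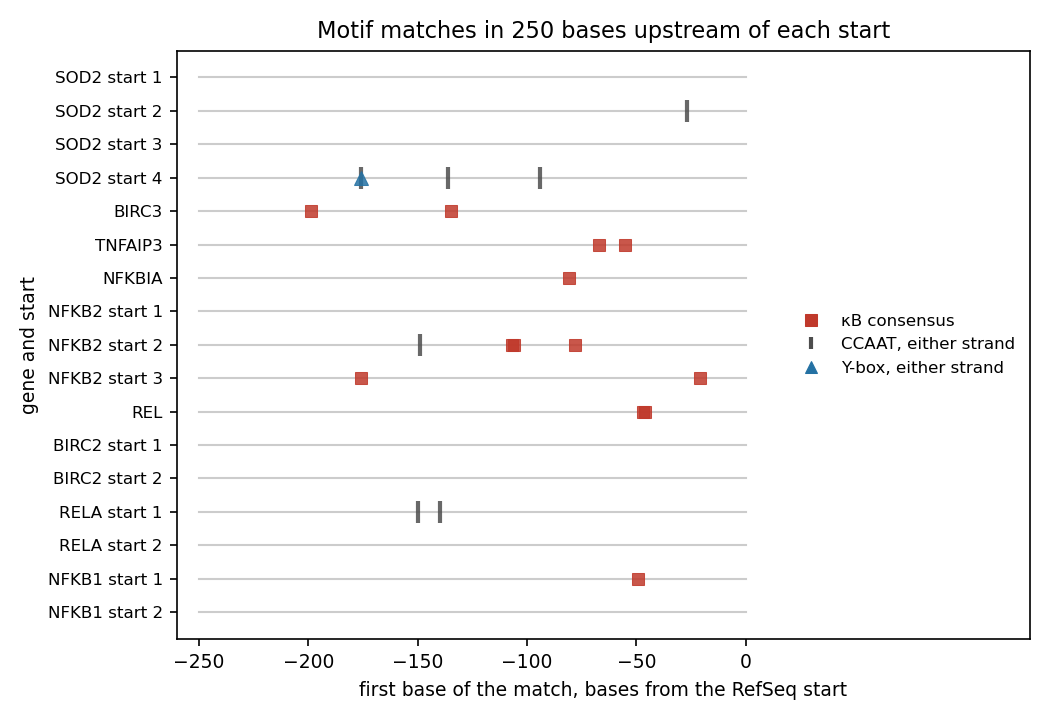
Matches to the κB consensus, CCAAT and the Y-box in the 250 bases upstream of each RefSeq start of the 9 members with a promoter window, by distance of the first base of the match from the start (x axis, bases). Each line is 1 start; the 6 members with κB matches and the 3 without, BIRC2, RELA and SOD2, can be read by row.

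The values are FPKM, fragments per kilobase of transcript scaled to the mapped fragments of the library, as deposited, so levels can be set side by side between genes per length. FPKM totals were 282736 to 295887 in the 6 libraries, and within-group correlations across genes were 0.9952 to 0.9959 (Pearson's r of log2 values). Absolute depth is unknown. Depth relative to shYB1 replicate 1, read from the spacing of the lowest values, was 0.980 to 1.095. YBX1 itself was at 366.5, 372.8 and 377.9 FPKM in vector and 166.7, 165.9 and 173.3 FPKM in shYB1 libraries. All 8 renal carcinoma markers had a mean of at least 1 FPKM, with summed levels of 1845 to 1936 FPKM in vector and 1919 to 1954 in shYB1 libraries, most of it VIM. Within that list the groups did not overlap for AQP1, a water channel at 13.5 ± 0.156 FPKM in vector and 24.4 ± 0.185 in shYB1 libraries (SD, n = 3 each), for PAX2, also higher, or for CA9 and EPAS1, both lower. Of 7 leukocyte markers, CD3E was listed at 0 and 2 reached 1 FPKM (CD68 and LYZ, summed list 26.1 to 28.3 in vector and 22.7 to 24.3 in shYB1). The 4 endothelial markers summed to under 1 FPKM in each library (0.416 to 0.475 and 0.322 to 0.415), with CDH5 listed at 0, and the 5 fibroblast markers to 2.50 to 2.61 and 2.74 to 2.95, with COL1A2 listed at 0.

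Differences are log2 fold changes, shYB1 minus vector, on the log2(FPKM + 0.1) scale, from limma fitted across 10439 genes, those whose mean over the 6 libraries reached 1 FPKM. All 10 members passed that filter. The median over all tested genes was 0.055. At an adjusted p under 0.05, 6.93% of all tested genes were lower and 18.7% higher in shYB1 libraries. That balance depends on the scaling: 723 genes were lower and 1956 higher with FPKM as deposited, against 1273 and 1171 with median-of-ratios size factors and 1186 and 1270 with quantile normalization. Among the members 5 met this criterion as lower and 0 as higher, a count that the selection on this contrast has shaped and from which nothing is read. By groups that do not overlap, 12.5% of tested genes were lower and 30.1% higher, and 5 members were lower and 0 higher. A fall of at least 2-fold was met by 0.211% of tested genes and by the members BIRC3 and SOD2. The selection shaped these member counts as well, and nothing is read from them.

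Groups overlapped for RELA, NFKB1, REL and RELB but not for NFKB2. Of the 10439 tested genes 5996 overlapped as well, and nothing is read from the count of subunits. RELA, the main transactivating subunit of the canonical branch, was at 21.12, 20.17 and 20.50 FPKM in vector and 20.82, 21.75 and 22.89 FPKM in shYB1 libraries. Its groups overlapped, with a log2 difference of 0.08 (SE 0.045). NFKB1, whose precursor gives the usual partner of RELA, was at 6.197, 6.524 and 6.928 FPKM in vector and 7.081, 7.021 and 6.723 FPKM in shYB1 libraries. These too overlapped (log2 difference 0.08, SE 0.058).

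REL, the subunit best known from lymphocytes, had the lowest level of the 10 in both groups. Its FPKM were 1.648, 1.683 and 1.324 in vector and 1.718, 1.432 and 1.416 in shYB1 libraries, with a log2 difference of −0.02 (SE 0.118). The value of REL is uncertain, since 42.8% of its 50-base words are also found in AC010733.2, a gene record on the same strand that overlaps 5702 of its exonic bases in GENCODE release 29.

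The subunits of the non-canonical branch had lower means in shYB1 libraries. NFKB2 was at 6.939, 6.382 and 6.524 FPKM in vector and 5.454, 5.302 and 6.101 FPKM in shYB1 libraries. Every shYB1 library lay below every vector library, with shYB1 replicate 3 and vector replicate 2 nearest to each other. Its log2 difference was −0.23 (SE 0.067). RELB, the partner of processed NFKB2, was at 3.865, 5.559 and 5.024 FPKM in vector and 3.641, 3.149 and 4.476 FPKM in shYB1 libraries. RELB had the widest spread of the members, a coefficient of variation of 18.0% in vector and 17.9% in shYB1 libraries. Its groups overlapped, with vector replicate 1 low and shYB1 replicate 3 high, and its log2 difference was −0.35 (SE 0.151).

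NFKBIA and TNFAIP3, the negative feedback genes, were lower in every shYB1 library. NFKBIA was at 89.57, 91.42 and 89.87 FPKM in vector and 63.02, 65.37 and 61.57 FPKM in shYB1 libraries. The means were 90.3 ± 0.993 and 63.3 ± 1.92 (SD, n = 3 each), and the log2 difference was −0.51 (SE 0.034). TNFAIP3 was expressed far below NFKBIA per length. Its FPKM were 8.859, 8.937 and 7.994 in vector and 5.535, 6.485 and 5.193 in shYB1 libraries, means of 8.60 ± 0.523 and 5.74 ± 0.669 (SD, n = 3 each) and a log2 difference of −0.58 (SE 0.082). For both genes the lowest vector library lay above the highest shYB1 library. In bulk RNA a lower level in every cell and a smaller share of cells expressing a gene cannot be told apart, which holds for each gene described here.

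BIRC2 and BIRC3 are adjacent on chromosome 11 of GRCh38 (BIRC3 at chr11:102317450-102339403, BIRC2 at chr11:102347211-102378670, both on the plus strand) and encode closely related proteins, but their mRNAs differed in behaviour. BIRC2 was at 14.69, 15.90 and 15.36 FPKM in vector and 14.79, 16.33 and 14.85 FPKM in shYB1 libraries, and both group means were 15.3 FPKM. BIRC3 was at 27.50, 28.53 and 27.87 FPKM in vector and 13.72, 13.18 and 12.31 FPKM in shYB1 libraries. BIRC3 was thus above BIRC2 in each vector library and below it in each shYB1 library. The BIRC3 means were 28.0 ± 0.519 and 13.1 ± 0.715 FPKM (SD, n = 3 each), a log2 difference of −1.09 (SE 0.047). The transcripts shared few 50-base words, 0.144% of those of BIRC3 and 0.224% of those of BIRC2.

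SOD2 had the highest level of the members in both groups and the largest difference. It was at 153.8, 158.1 and 156.7 FPKM in vector and 71.78, 71.47 and 69.23 FPKM in shYB1 libraries. The groups lay far apart, and the means were 156 ± 2.18 and 70.8 ± 1.39 FPKM (SD, n = 3 each), a log2 difference of −1.14 (SE 0.031). In GENCODE release 29 the gene lies on the minus strand of chr6:159669057-159745186 and overlaps 298 exonic bases of WTAP on the other strand. Another record of the same name on the same strand shares 845 exonic bases with it, and 4.51% of its 50-base words occur in genes of other names. The strandedness of the libraries is not given in the sources used here, so reads in the stretch shared with WTAP could come from either gene.

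**Figure D2:**
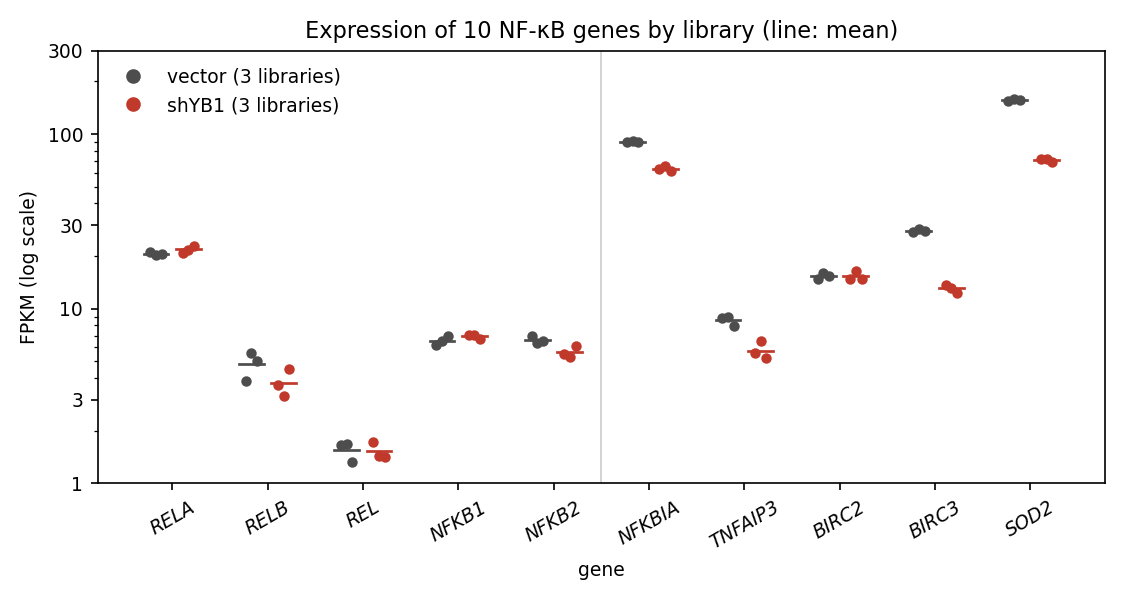
FPKM of the 10 members (y axis, log scale) in each of the 3 vector and 3 shYB1 libraries, with the group mean as a line; the subunits stand left of the vertical line. SOD2, BIRC3, NFKBIA, TNFAIP3 and NFKB2 have shYB1 points wholly below the vector points, and the other 5 genes overlap.

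By level per length, the order in vector libraries was SOD2, NFKBIA, BIRC3, RELA, BIRC2, TNFAIP3, NFKB2, NFKB1, RELB and REL. NFKB2 and NFKB1 were the only neighbours whose ranges over the 3 libraries overlapped. In shYB1 libraries the order was SOD2, NFKBIA, RELA, BIRC2, BIRC3, NFKB1, TNFAIP3, NFKB2, RELB and REL, and only TNFAIP3 and NFKB2 overlapped. BIRC3 moved from rank 3 to rank 5, and NFKB1 from rank 8 to rank 6.

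Ratios of FPKM taken within a library do not depend on how the libraries are scaled against each other. The ratio of BIRC3 to BIRC2 was 1.872, 1.794 and 1.814 in vector and 0.928, 0.807 and 0.828 in shYB1 libraries. The ratio of NFKBIA to RELA, inhibitor to subunit, was 4.241, 4.532 and 4.385 in vector and 3.027, 3.006 and 2.690 in shYB1 libraries. Both ratios were lower in every shYB1 library. Since the members were selected on this contrast, the ratios between members given here restate their differences and add no support. The ratio of TNFAIP3 to RELA was 0.390 to 0.443 in vector and 0.227 to 0.298 in shYB1 libraries. That of NFKB2 to NFKB1 was 0.942 to 1.12 and 0.755 to 0.908. The last came near to overlap, and RELB to RELA did overlap. SOD2 was also set against SOD1, the cytosolic copper-zinc dismutase, a comparison chosen with the values in view: the ratio was 0.975, 1.005 and 0.904 in vector and 0.393, 0.398 and 0.379 in shYB1 libraries.

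**Figure D3:**
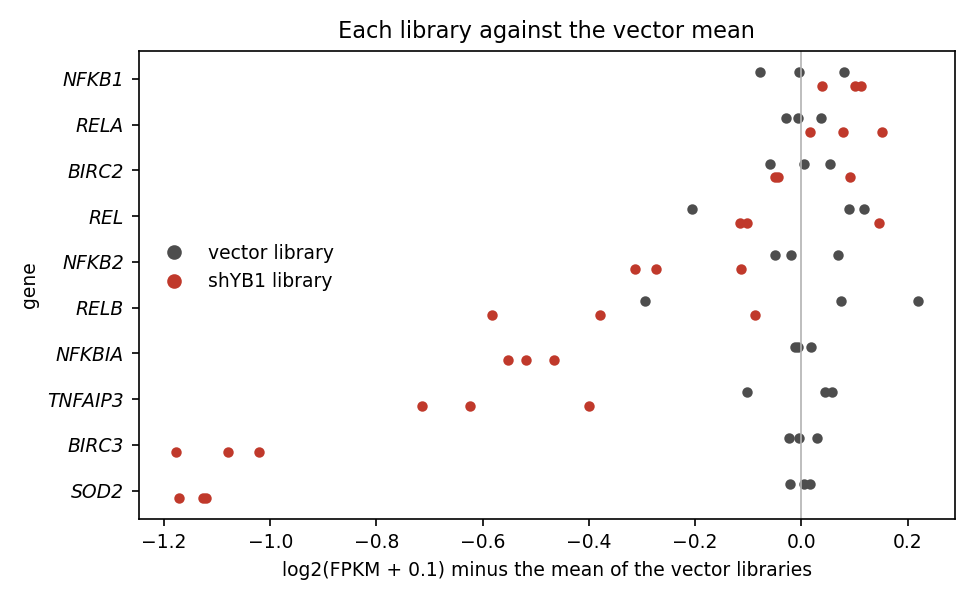
Difference of each library from the mean of the vector libraries on the log2(FPKM + 0.1) scale (x axis) for the 10 members, ordered by their mean difference. SOD2 and BIRC3 shYB1 points lie near −1.1, NFKBIA and TNFAIP3 shYB1 points lie between those and 0, and the points of NFKB1, RELA, BIRC2 and REL lie around 0 in both groups.

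Profiles were compared by the root mean square (RMS) difference between centred log2 values over the 6 libraries, among all tested genes. The 3 closest to BIRC3 were BDKRB2, a bradykinin receptor (RMS 0.035), SOD2 (0.039) and C3, complement component C3 (0.047), against a median of 0.581 over all genes. The 3 closest to SOD2 were C3 (0.015), BDKRB2 (0.033) and YBX1 (0.037), against a median of 0.603. BDKRB2 was at 5.825, 5.768 and 5.816 FPKM in vector and 2.758, 2.608 and 2.598 FPKM in shYB1 libraries. With 3 libraries a group, likeness of profile here means mainly a group difference of the same size. In the KEGG annotation deposited with the table, 8 members carry the NF-kappa B pathway, 6 the TNF pathway and 5 apoptosis, and REL and SOD2 carry none of the 3.

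The rest of the pathway was taken from a list of 112 genes that holds none of the members, of which 90 passed the filter on low values. In limma's test with Benjamini-Hochberg adjustment over all 10439 genes, 28 of the 90 fell and 11 rose in shYB1 libraries, and their median log2 difference was −0.04, against 0.055 over all genes. These are shares of 31.1% and 12.2%, beside 6.93% lower and 18.7% higher among all tested genes, and most lists below are too short for such a share to say much. The lists were drawn up with earlier results of these data known, so the shares are given as a description only. All 39 genes that passed are named, those outside the rule for named genes after their values were seen.

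Of the ligands, 4 of 12 were tested and 3 fell, TNF, IL1B and TNFSF10. IL1B, the inflammatory cytokine interleukin-1β, was at 1.658, 1.557 and 1.579 FPKM in vector and 0.960, 0.471 and 0.831 FPKM in shYB1 libraries (log2 difference −1.04, SE 0.202, adjusted p = 0.00592). TNF itself was low, at 3.321, 5.546 and 4.685 FPKM in vector and 2.594, 2.686 and 2.930 FPKM in shYB1 libraries (−0.67, SE 0.158, adjusted p = 0.0149). The TNF call was lost without vector replicate 3, shYB1 replicate 1 or shYB1 replicate 2 (adjusted p = 0.0505, 0.0587 and 0.0512). Both ligands had every shYB1 library below every vector library.

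Of the receptors, 10 of 13 were tested, and 2 fell and 1 rose. TNFRSF1A, the main TNF receptor, fell by 0.15 on the log2 scale (SE 0.035, adjusted p = 0.0115), and LTBR, the lymphotoxin β receptor of the non-canonical branch, by 0.29 (SE 0.053, adjusted p = 0.00398). TNFRSF12A, the receptor for TWEAK, rose from 143 ± 5.71 to 195 ± 2.91 FPKM (SD, n = 3 each; log2 difference 0.45, SE 0.035, adjusted p = 2.39e-05). The other 7 tested receptors, CD40, TLR3 and TLR4 among them, did not pass.

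Adaptors and kinases had 19 of 22 genes tested, of which IKBKE fell (−0.27, adjusted p = 0.0197, lost in 3 of the 6 fits that leave out a library) and IRAK1, MAP3K14 and CHUK rose. MAP3K14 encodes NIK, the kinase that starts the non-canonical branch and that the cIAPs help to degrade. It was at 10.31, 9.869 and 10.50 FPKM in vector and 13.13, 13.20 and 13.91 FPKM in shYB1 libraries (log2 difference 0.39, SE 0.048, adjusted p = 0.000357), although 713 of its exonic bases overlap MAP3K14-AS1 on the other strand. IRAK1, a kinase below the interleukin-1 and Toll-like receptors, rose from 74.7 ± 3.74 to 98.6 ± 4.31 FPKM (SD, n = 3 each; 0.40, SE 0.045, adjusted p = 0.000188). CHUK, the IκB kinase IKKα, rose by 0.25 (SE 0.080, adjusted p = 0.0460), a call lost in 10 of 15 alternative settings, among them 5 of the 6 that leave out a library. IKBKB and IKBKG, the other parts of the IκB kinase complex, did not pass (−0.10 and 0.25 on the log2 scale).

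The list kept under ubiquitin editors also holds partners of such enzymes. All 12 of its genes were tested, and RNF11, TNIP1 and ZC3H12A fell while OTULIN rose. RNF11 and TNIP1 encode partners of A20, the TNFAIP3 product, and fell by 0.19 each (adjusted p = 0.00235 and 0.00823). ZC3H12A, an RNase that degrades inflammatory mRNAs, was at 36.14, 36.25 and 34.80 FPKM in vector and 21.28, 22.94 and 20.59 FPKM in shYB1 libraries (−0.72, SE 0.046, adjusted p = 5.31e-06). OTULIN, which removes linear ubiquitin chains, rose by 0.23 (SE 0.053, adjusted p = 0.0106).

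Of the 4 tested genes among 5 other IκB proteins, NFKBIE, NFKBIZ and BCL3 fell, by 0.27, 0.25 and 0.56 on the log2 scale (adjusted p = 0.0140, 0.00189 and 0.000237), beside −0.51 for NFKBIA. NFKBIB was the 1 that did not pass, except without vector replicate 3, where it rose (0.36, adjusted p = 0.00546). It was at 6.68 ± 1.05 FPKM in vector and 7.88 ± 0.194 in shYB1 libraries (SD, n = 3 each). Its mean was thus higher in shYB1 libraries, unlike those of NFKBIA, NFKBIE, NFKBIZ and BCL3.

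The lists of other inhibitor of apoptosis genes and caspases and of other survival targets had smaller log2 differences than BIRC3, from −0.28 to 0.44. Of 10 other inhibitor of apoptosis genes and caspases, 9 were tested, 0 fell and BIRC5 (survivin) rose by 0.17 (SE 0.038, adjusted p = 0.00787). XIAP, the family member that blocks caspases directly, was at 8.23 ± 0.255 FPKM in vector and 8.98 ± 0.220 in shYB1 libraries and did not pass. Of 10 other survival targets, 8 were tested, IER3 and FTH1 fell, and the anti-apoptotic BCL2L1 and BCL2 rose. BCL2L1 was at 48.41, 47.85 and 50.21 FPKM in vector and 56.05, 55.36 and 57.89 FPKM in shYB1 libraries (0.21, SE 0.035, adjusted p = 0.00217), and 1424 of its exonic bases overlap ABALON on the other strand. BCL2 was low, at 1.06 ± 0.119 and 1.48 ± 0.0809 FPKM (SD, n = 3 each; 0.44, SE 0.107, adjusted p = 0.0137). FTH1, the heavy chain of the iron store ferritin, fell by 0.28 (SE 0.033, adjusted p = 0.000245), although processed copies of this gene elsewhere in the genome can share its reads.

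Beside SOD2, the antioxidant enzymes SOD1, SOD3 and CAT were tested. SOD1 rose from 163 ± 9.22 to 182 ± 1.85 FPKM (SD, n = 3 each; log2 difference 0.16, SE 0.040, adjusted p = 0.0170), a call lost without vector replicate 1, vector replicate 2 or shYB1 replicate 1, with median-of-ratios size factors and with a variance prior without trend. SOD3, the extracellular dismutase, and CAT, catalase, did not pass, with log2 differences of −0.14 and −0.08. SOD3 passed as lower without vector replicate 2 (−0.20, adjusted p = 0.0421) and with quantile normalization (−0.20, adjusted p = 0.0337). These differences stand beside −1.14 for SOD2.

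The inflammatory targets were the longest list. Of its 26 genes 21 were tested, and 14 fell and 2 rose, with a median log2 difference of −0.47, near the −0.49 of the 4 tested ligands. C3, the central complement component, was at 45.99, 48.10 and 48.25 FPKM in vector and 21.58, 21.70 and 21.27 FPKM in shYB1 libraries (−1.14, SE 0.036, adjusted p = 4.80e-08). The chemokine CCL2 fell from 3.90 ± 0.238 to 1.79 ± 0.428 FPKM (SD, n = 3 each; −1.11, SE 0.147, adjusted p = 0.000928). Those log2 differences were close to the values of BIRC3 and SOD2. PTGS2, the inducible cyclooxygenase, fell from 14.7 ± 0.822 to 7.94 ± 0.454 FPKM (SD, n = 3 each; −0.88, SE 0.059, adjusted p = 7.17e-06).

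Adhesion molecules belonged to this group too. VCAM1 was at 111 ± 3.02 FPKM in vector and 65.7 ± 3.07 in shYB1 libraries (SD, n = 3 each; −0.76, SE 0.040, adjusted p = 1.63e-06). ICAM1 was at 75.6 ± 1.38 and 44.7 ± 0.973 FPKM (SD, n = 3 each; −0.76, SE 0.033, adjusted p = 4.74e-07), with 876 exonic bases shared with genes of the other strand. Both fell, as did the chemokines CXCL1, CXCL2, CXCL3, CXCL5 and CXCL8. Of these, CXCL1, CXCL2 and CXCL3 share 4.81% to 12.5% of their 50-base words with other genes, and CXCL3 (−0.42, adjusted p = 0.0433) lost its call in 5 of the 6 fits that leave out a library. TNFAIP2 and CSF1, the macrophage colony-stimulating factor, fell by 0.60 and 0.49 (adjusted p = 1.26e-06 and 5.84e-06). LCN2, lipocalin 2, fell by 0.62 (adjusted p = 0.0198), a call lost with no filter on low values and without vector replicate 2 or vector replicate 3. SAA1, an acute-phase protein, fell by 0.78 (SE 0.094, adjusted p = 0.000518), but 46.6% of its 50-base words occur in SAA2, so its value is uncertain.

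Exceptions stood among the same targets. CCL20, a chemokine, rose from 1.41 ± 0.0124 to 2.01 ± 0.0568 FPKM (SD, n = 3 each; 0.49, SE 0.082, adjusted p = 0.00211), and PLAU, the urokinase, rose by 0.17 (SE 0.045, adjusted p = 0.0195), a call lost in 4 of the 6 fits that leave out a library, with median-of-ratios or quantile scaling, and with a variance prior without trend. IL6 did not pass, at 13.81, 13.32 and 15.14 FPKM in vector and 14.09, 16.49 and 15.25 FPKM in shYB1 libraries, which overlap.

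**Figure D4:**
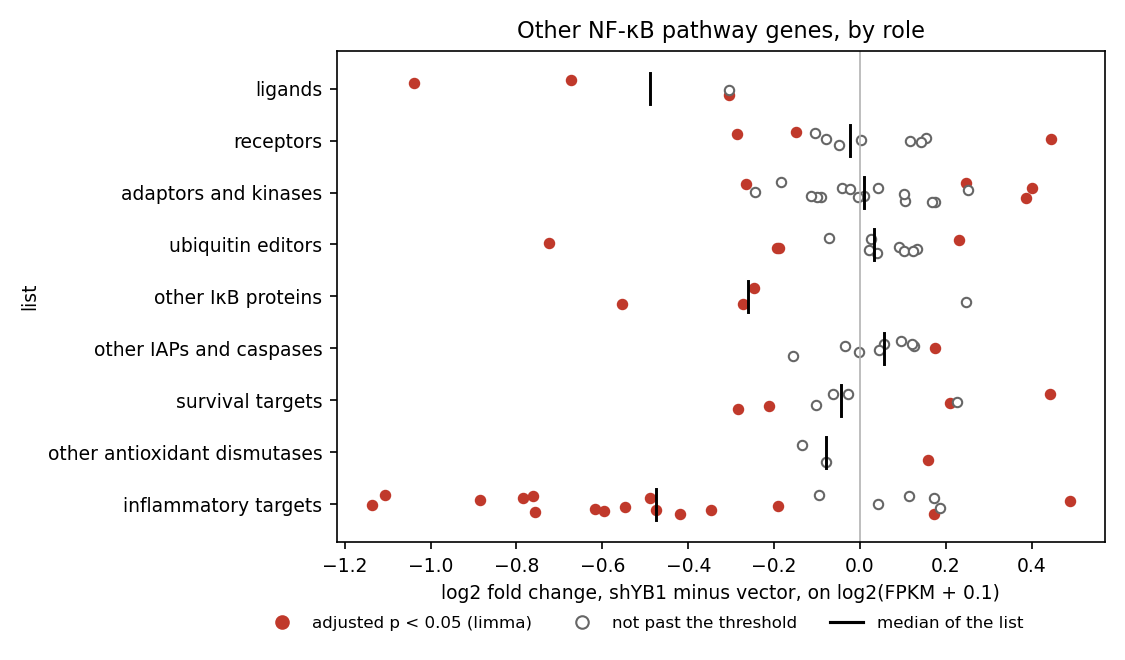
Log2 fold change, shYB1 minus vector (x axis, log2(FPKM + 0.1) scale), of the tested NF-κB pathway genes other than the members, by list. Filled points have an adjusted p under 0.05 in limma's test, open points do not, and the black bar is the median of the list. Of 21 inflammatory targets 14 are filled left of 0 and 2 right of 0. Of 19 adaptors and kinases 1 is filled left of 0 and 3 right of 0. Among all tested genes 6.93% were lower and 18.7% higher.

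The κB consensus occurred among pathway genes of either direction. At least 1 match was found in 9 of 21 genes that fell and had a promoter window (42.9%). Matches were also found in 2 of 8 that rose (25.0%) and in 15 of 43 that did not pass (34.9%). Among all tested genes with a window the share was 18.4%. Whether these shares differ was not tested. Over the 8382 tested genes with a window the median log2 difference was 0.05 with a match and 0.06 without. Among the members, NFKBIA, TNFAIP3, BIRC3 and NFKB2, printed above with their κB matches, had lower levels in shYB1 libraries. NFKB1 and REL, which also hold matches, overlapped between the groups, and SOD2 was lower with no match in its 4 windows.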

How the data were processed

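RNA was sequenced from 3 vector and 3 shYB1 libraries of 786-O cells, grouped by their labels; columns marked con were taken as the vector libraries. The authors deposited FPKM per gene, with no counts. The submitters' processing notes name Trimmomatic, HISAT2, Cufflinks, HTSeq, DESeq and GRCh38, without roles or versions. These were taken to the scale log2(FPKM + 0.1), genes under a mean of 1 FPKM were left out, and limma 3.58.1 in R 4.3.3 (trend, robust prior, two-sided, Benjamini-Hochberg adjustment) was fitted to the remaining 10439; the step was tested on simulated data. Named genes are the 10 members, YBX1, up to 8 list genes with the largest rise and 8 with the largest fall among those with an adjusted p under 0.05 and no overlap, and the 3 closest profiles to BIRC3 and to SOD2. Members and lists were chosen with earlier results of these data known. Gene coordinates, overlaps and shared 50-base words are from GENCODE release 29 (GRCh38), promoters from RefSeq (GRCh38.p14); RELB had no promoter entry. The result of 1 leukocyte marker is not reported here. Alternatives were other pseudocounts, filters, scalings and variance prior, a replicate block, and each library left out. Python 3.11.15 with NumPy 2.4.6, pandas 2.3.3 and matplotlib 3.10.9 was used otherwise.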

Additional observations from a re-analysis of the deposited data

How the results depend on the processing

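Scaling changed the balance of all genes: with median-of-ratios size factors 1273 genes were lower and 1171 higher, and with quantile normalization 1186 and 1270, against 723 and 1956 as reported, so that the share of higher genes among those past the threshold was 47.9% and 51.7% against 73.0%. The pathway list gave 34 lower and 8 higher, and 35 and 9, against 28 and 11. NFKBIA, TNFAIP3, BIRC3, SOD2 and NFKB2 stayed lower in all 15 alternatives, which adds no support, since the members were chosen on this contrast. Under median-of-ratios scaling the log2 differences of NFKBIA and SOD2 were −0.57 and −1.20. The number of members counted as lower was 4 to 6 over the alternatives, a count with no test since the members were chosen on this contrast. NFKB2 was not counted with no filter on low values, without vector replicate 1, or without shYB1 replicate 1 or shYB1 replicate 2. RELB was counted only without vector replicate 1 or shYB1 replicate 3. At a mean of at least 5 FPKM, REL and RELB were not tested. Of the 39 pathway genes past the threshold, 8 lost it in at least 1 alternative: CHUK, CXCL3, IKBKE, LCN2, PLAU, SOD1, TNF and TNFRSF1A. Leaving out 1 library gave 1854 to 2507 genes past the threshold against 2679, and 34 to 39 against 39 in the pathway list.

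The replicate numbers 1 to 3 are shared by both groups, but libraries of the same number did not deviate together (r of −0.169 to −0.0082 over 3 pairs, against −0.0507 to 0.113 over 6 pairs of different numbers). With the replicate block 2834 genes passed, and 41 of the pathway list. Depth is unknown for FPKM, which limits what can be said of genes near the filter, such as REL, BCL2 and IL1B.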
